A study of Mus musculus with 18 samples.

Results

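The nuclear-encoded subunits of the respiratory chain were taken by symbol: genes that begin with Ndufa, Ndufb, Ndufc, Ndufs, Ndufv, Uqcr, Cox4i, Cox5, Cox6, Cox7, Cox8 or Atp5, and the 4 Sdh genes, without Ndufaf assembly factors and pseudogenes. The rule took 82 of the 14011 genes in the authors' normalized table: 38 of complex I, 4 of complex II, 8 of complex III, 16 of complex IV and 16 of complex V. The libraries were made from regulatory T cells (TR), CD4 T cells that hold back immune responses, of 3 littermate C57BL/6 mice (84, 86 and 87). All groups carry the same 2 reporters, Id3-GFP and Foxp3-mRFP, and the labels name no treatment. From spleen and from peripheral lymph node of each mouse, 500 cells per library were sorted into 3 populations after CD4 bead isolation: Id3-GFP-positive central TR (Id3+ cTR, CD62L-high and CD44-low), GFP-positive effector TR (Id3+ eTR, CD62L-low and CD44-high), and GFP-negative effector TR (Id3- eTR, whose label states no CD62L or CD44 gate). This gives 6 groups of 3 libraries, 18 in all, made with SMART-Seq v4 and a modified Nextera XT protocol, and the labels give no age. The comparisons below ask whether the subunit genes differ between these populations and between the tissues.

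The respiratory chain sits in the inner mitochondrial membrane. Complex I takes electrons from NADH and complex II takes them from succinate, complex III passes them to cytochrome c, and complex IV passes them to oxygen. Complex V, the ATP synthase, makes ATP from the proton gradient that complexes I, III and IV build. Most subunits are encoded in the nucleus and imported, while a core of complexes I, III, IV and V is encoded by mitochondrial DNA. TR are known to rely on oxidative metabolism more than conventional effector T cells do.

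Library totals ran from 1600782 to 3153325 counts, and 3 libraries stand apart: spleen Id3+ cTR of mice 84 and 87, with the lowest totals, and spleen Id3+ eTR of mouse 84, with the highest. That last library differed from its group in more than its total. Its variance against mice 86 and 87 was 22.2 and 22.3 times that of counting error. All other pairs within a group lay between 4.45 and 8.07. The part of this in its subunit level was not tested. The 6 TR markers Foxp3, Il2ra, Ctla4, Ikzf2, Cd4 and Cd3e summed to between 2384 and 3555 CPM (the usual counts-per-total unit, on totals scaled by TMM), and none was at 0 in any group. Of other cells, 8 erythroid and platelet genes summed to 190.5 to 324 CPM in spleen Id3+ cTR, with Ppbp at 0. Their sum was 10.1 to 147 CPM for Id3+ eTR of spleen, 18.8 to 135 for Id3- eTR of spleen and 1.14 to 9.5 in the lymph node groups. The 8 myeloid and dendritic genes summed to 141 to 167 CPM in lymph node Id3+ cTR, 216 to 446 for lymph node Id3+ eTR and 327 to 363 in lymph node Id3- eTR, with Itgax at 0 in all 3 groups and Csf1r at 0 in the first and the last. Their spleen sums were 137 to 264 CPM for Id3+ cTR, 152 to 257 for Id3+ eTR (Itgax at 0) and 234 to 296 for Id3- eTR. The 6 CD8 T and NK genes, with Ncr1 at 0 in every group, summed in the same order to 74.3 to 170, 103 to 134 and 151 to 210 CPM in spleen. In lymph node they summed to 59.9 to 104, 152 to 238 and 179 to 220 CPM. The 6 B cell genes summed to 55.3 to 205 CPM in spleen Id3+ cTR and 93.6 to 138 in the other groups. The 5 stromal and endothelial genes summed in the same order to 282 to 345, 171 to 190 and 75.2 to 111 CPM in spleen. In lymph node they summed to 201 to 292, 116 to 152 and 64.9 to 79.4. Col1a2, Pdgfrb and Cdh5 were at 0 in every group, and Col1a1 in Id3+ cTR of both tissues, where the sum is that of Pecam1. Its part in the subunit differences was not tested. In such bulk libraries, fewer cells of a type and less RNA per cell cannot be told apart.

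The subunit genes together held between 0.801% and 1.30% of a library's counts. Their summed level was highest in spleen Id3+ cTR, at 12542 ± 1473 CPM (SD, n = 3). Spleen Id3+ eTR had 9953 ± 1294 and spleen Id3- eTR 10339.5 ± 361. In lymph node the 3 populations stood at 10953 ± 566, 10979 ± 746 and 10306.5 ± 204 in the same order. By library, spleen Id3+ cTR gave 13328, 10844 and 13456 CPM for mice 84, 86 and 87, so the high group mean came from mice 84 and 87. Spleen Id3+ eTR gave 8461, 10765 and 10634, where mouse 84 was the low library. The groups of spleen Id3+ cTR and Id3+ eTR did not overlap, but their nearest libraries, both of mouse 86, were 10844 and 10765.

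The complexes moved together over these libraries. Complex I summed to between 3397 and 5467 CPM, complex III to between 977 and 1598, complex IV to between 801 and 1519, and complex V to between 2301 and 3738. In each of these 4 complexes the lowest library was spleen Id3+ eTR of mouse 84 and the highest was spleen Id3+ cTR of mouse 84 or 87. Complex IV had the widest range, 1.90-fold from the lowest to the highest library. Complex II, whose 4 transcripts are longer, ranged by 1.48-fold, from 870.2 CPM in lymph node Id3- eTR of mouse 87 to 1289 in spleen Id3+ cTR of mouse 87.

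**Figure D1:**
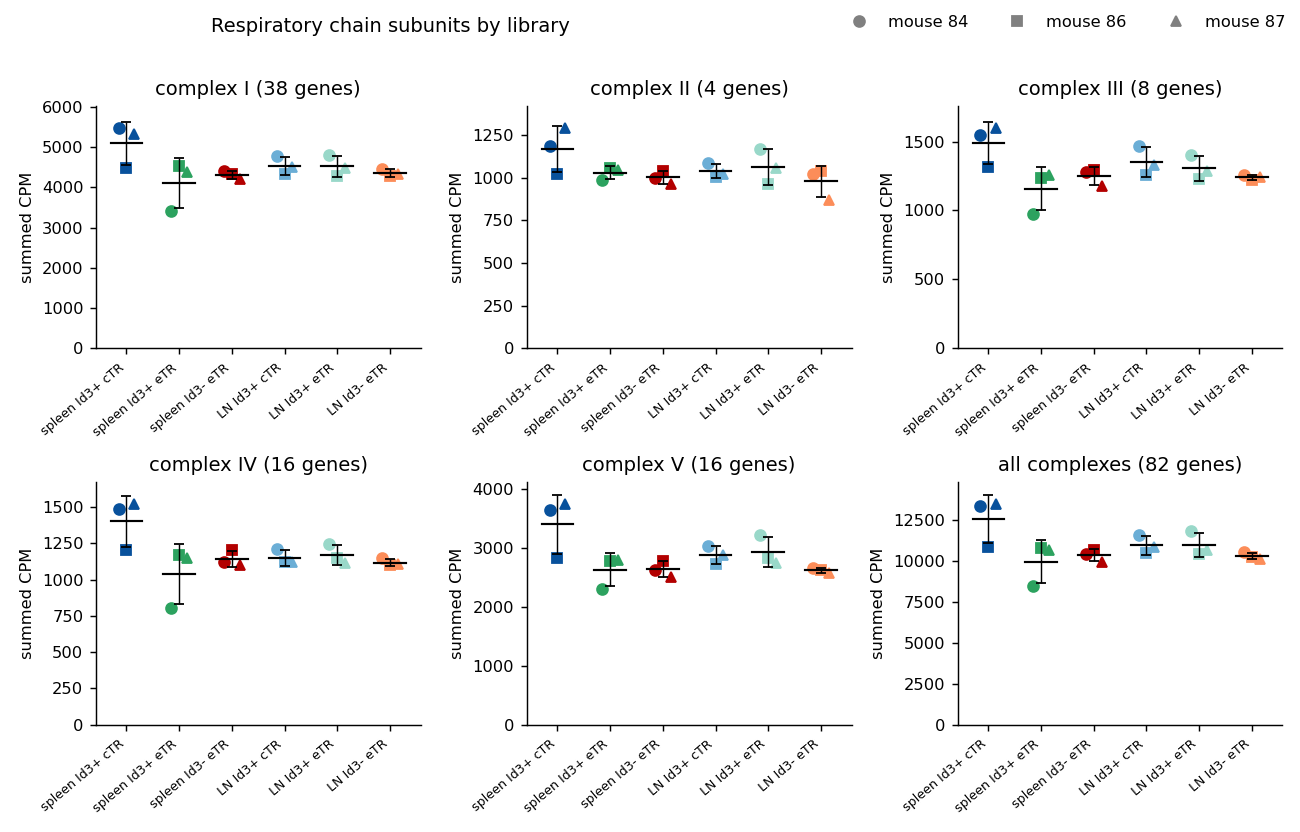
Summed CPM of the subunit genes of each complex (y axis, from 0) in the 18 libraries, by group (x axis); points are libraries, with the mouse as symbol, lines are means and bars the SD. Spleen Id3+ cTR of mice 84 and 87 lie highest and spleen Id3+ eTR of mouse 84 lies lowest in complexes I, III, IV and V, and the lymph node groups lie close together.

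Per kilobase of transcript, the median level was 130.04 CPM in complex I, 167 in complex II, 191 in complex III, 145 in complex IV and 126 in complex V, over the 75 genes that passed the filter on low counts. These levels were not corrected for the fall of densely covered genes with library total described below. Ranks between genes and complexes therefore hold for these counts only. In complex V the highest level per kilobase was that of Atp5b, which encodes the catalytic beta subunit, at 384 CPM. Atp5g3, one of 3 genes for the same c-ring protein, followed at 359. Atp5a1, the alpha subunit that alternates with beta in the head, stood at 236. In CPM without the length, Atp5b ran from 588 to 1047 and Atp5a1 from 527 to 784 over the libraries. Atp5g3 ran from 168 to 324.

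In complex IV, the terminal oxidase, Cox4i1 led with 352 CPM per kilobase, followed among the 3 most abundant by Cox6b1 (287) and Cox6a1 (267). Cox4i1, a regulatory subunit, ran from 187 to 359 CPM, Cox6a1 from 108 to 203 and Cox6b1 from 91.5 to 181. In complex III, Uqcrc1 and Uqcrc2, the core proteins, had 241 and 128 CPM per kilobase, and Uqcrfs1, the Rieske iron-sulfur protein that hands electrons on, had 128. The symbol rule does not take Cyc1, also of complex III. Its group means of 206 to 239 CPM lay above the mean of Uqcrfs1 (174 CPM). In complex I, Ndufa9 had 185, Ndufv2, an iron-sulfur subunit of the NADH-binding arm, had 162, and Ndufa10 had 103. Of these complex I genes, Ndufv2 varied most, from 131 to 263 CPM. The genes for complex II, which is also an enzyme of the citric acid cycle, stood at 250 (Sdhb), 196 (Sdhd), 139 (Sdha) and 58.3 (Sdhc) CPM per kilobase.

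The 4 Sdh genes differed in how they followed the libraries. Sdhb, the iron-sulfur subunit, read 360.2, 267 and 393 CPM in spleen Id3+ cTR of mice 84, 86 and 87, and 199, 276 and 260.4 in spleen Id3+ eTR. Sdha, the flavoprotein, read 391, 394 and 517 in spleen Id3+ cTR and 495, 389 and 449 in spleen Id3+ eTR. So in the deepest library, spleen Id3+ eTR of mouse 84, Sdhb was at its lowest of the 18 and Sdha at its second highest. The membrane anchor Sdhc ran from 91.1 to 137 CPM and the anchor Sdhd from 199.7 to 295. In edgeR none of the 4 was called in any comparison (lowest adjusted p = 0.0587, for Sdhb in spleen Id3+ eTR against Id3+ cTR). DESeq2 called Sdhb lower in that comparison (-0.47, adjusted p = 0.0174).

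Where a subunit has tissue forms, 1 form held nearly all of the signal. Cox4i1 stood at 352 CPM per kilobase, while Cox4i2, the form known from lung and low oxygen, had 7 counts in all 18 libraries (0.210 CPM per kilobase). Cox6a1 stood at 267, and Cox6a2, the heart and muscle form, had 4 counts, all in lymph node Id3- eTR of mouse 86. Cox7a2 stood at 160 and the muscle form Cox7a1 at 1.79. Cox6b1 stood at 287 and the testis form Cox6b2 at 1.97. Cox8a stood at 176 and the muscle form Cox8b had 0 counts, as did Cox8c, which is in the count table only. Ndufa4, named for complex I but now placed in complex IV, stood at 270.3, and its relative Ndufa4l2 had 0 counts. Both were kept in complex I by their symbols in all counts, sums, medians and correlations by complex. A count of 0 over the 45679343 counts allows up to 3 counts, or 0.0657 CPM, for counting error only.

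Of the c-ring genes, Atp5g3 (359 CPM per kilobase) lay above Atp5g1 (4.36) and Atp5g2 (0.846). The values of Atp5g2 are uncertain, since 87.4% of the 50-base words of its transcripts also occur in other genes. The same holds for Atp5l (84.8% shared, 4.12 CPM on average), and 10 of the 82 genes shared over 30% of their words. The 7 genes that did not pass the filter were Ndufa4l2, Cox4i2, Cox6a2, Cox6b2, Cox7a1, Cox8b and Atp5g2, and they stay out of all tests below.

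The RefSeq windows of 250 bases before to 50 bases after a start (build GRCm38.p6) matched 66 of the 82 genes by symbol. Each motif was searched on both strands by exact letters. GCATGCGC, the core of the site of nuclear respiratory factor 1 (NRF1), stood in 10 of the 66 genes (15.2%), against 6.39% of the 8841 tested genes with a window and 2.71% of all 32851 windows. With GC before it, which completes the palindromic NRF1 site and contains the shorter word, it stood in 5 (7.58%, against 2.53% and 0.971%). AAGATGGCG, a YY1 site, stood in 7 (10.6%, against 3.92% of tested genes and 1.4% of windows), and TCAAGGTCA, the site of estrogen-related receptors (ERR), in 2 (3.03%, against 0.305% and 0.423%). CCGGAAGT, a site of the ETS family that includes GABP, stood in 5 (7.58%, against 10.1% and 3.89%), and TATAAA in 6 (9.09%, against 8.42% and 13.6%). Median GC content was 57.3% in the windows of the subunit genes and 60.7% in those of all tested genes. A match is a stretch of letters and not a measured binding site.

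Printed here are the 250 bases before the start of Cox7a2l and Ndufv1, whose population differences are described below, of Ndufa8, whose 1 call was lost in 9 of 13 alternative settings and which shows an NRF1 word, and of the 2 abundant genes Cox6a1 and Atp5g3, which show an NRF1 and an ERR site. They run 5′ to 3′ on the strand of the gene, and capitals mark a searched motif. Cox6a1 (chr5:115348959-115349208, minus strand) holds the whole NRF1 site from 162 bases before the start. Atp5g3 (chr2:73911327-73911576, minus strand) holds the ERR word on the opposite strand from 52 bases before the start. Ndufa8 (chr2:36049339-36049588, minus strand) holds GCATGCGC in the last 8 bases. Cox7a2l (chr17:83514334-83514583, minus strand) and Ndufv1 (chr19:4012756-4013005, minus strand) hold none of the 6 words in these bases.
Cox6a1: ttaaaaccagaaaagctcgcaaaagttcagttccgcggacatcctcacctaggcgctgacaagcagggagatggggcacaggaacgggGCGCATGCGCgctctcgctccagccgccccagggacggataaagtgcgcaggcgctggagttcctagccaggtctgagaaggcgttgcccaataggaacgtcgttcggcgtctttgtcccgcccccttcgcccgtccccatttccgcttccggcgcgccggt
Atp5g3: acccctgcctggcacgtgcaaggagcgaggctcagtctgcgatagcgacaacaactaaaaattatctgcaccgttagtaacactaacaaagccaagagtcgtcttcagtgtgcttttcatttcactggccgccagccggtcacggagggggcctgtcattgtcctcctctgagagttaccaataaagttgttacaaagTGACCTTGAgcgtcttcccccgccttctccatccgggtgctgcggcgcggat
Ndufa8: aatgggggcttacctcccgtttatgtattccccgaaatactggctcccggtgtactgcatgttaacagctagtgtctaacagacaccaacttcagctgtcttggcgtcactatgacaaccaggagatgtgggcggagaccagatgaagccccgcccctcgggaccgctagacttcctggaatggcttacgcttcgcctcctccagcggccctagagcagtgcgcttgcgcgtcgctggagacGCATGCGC
Cox7a2l: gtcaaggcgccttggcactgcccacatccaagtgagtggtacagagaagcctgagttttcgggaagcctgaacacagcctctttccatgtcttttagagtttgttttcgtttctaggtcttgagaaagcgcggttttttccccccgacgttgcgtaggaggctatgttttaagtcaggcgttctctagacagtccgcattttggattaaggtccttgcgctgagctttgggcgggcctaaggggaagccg
Ndufv1: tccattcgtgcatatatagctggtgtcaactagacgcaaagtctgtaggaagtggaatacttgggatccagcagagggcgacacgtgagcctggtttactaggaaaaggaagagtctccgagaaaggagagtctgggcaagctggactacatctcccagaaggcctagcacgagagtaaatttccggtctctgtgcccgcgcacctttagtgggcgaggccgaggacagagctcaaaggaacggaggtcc

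The summed level fell as the library total rose. Over the 18 libraries, log2 summed CPM and log2 library total had r = -0.876 (rho = -0.732), with a slope of -0.50. The libraries share mice and populations, so this is a description. The deepest library, spleen Id3+ eTR of mouse 84 (3153325 counts), summed to 8461 CPM. The next deepest, lymph node Id3+ cTR of mouse 86 (2988373 counts), summed to 10453. Within groups, after each group's mean was taken off, r was -0.882 (rho -0.853). Without the 2 libraries with the lowest totals r was -0.683 (rho -0.621, n = 16), and without all 3 libraries that stand apart it was -0.604 (rho -0.539, n = 15). By complex, r was -0.812 for I, -0.799 for II, -0.783 for III, -0.870 for IV and -0.902 for V. Without the 3 libraries it was -0.450, -0.568, -0.393, -0.868 and -0.627, so the relation of complexes I and III rests in large part on those libraries and that of complex IV does not.

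**Figure D2:**
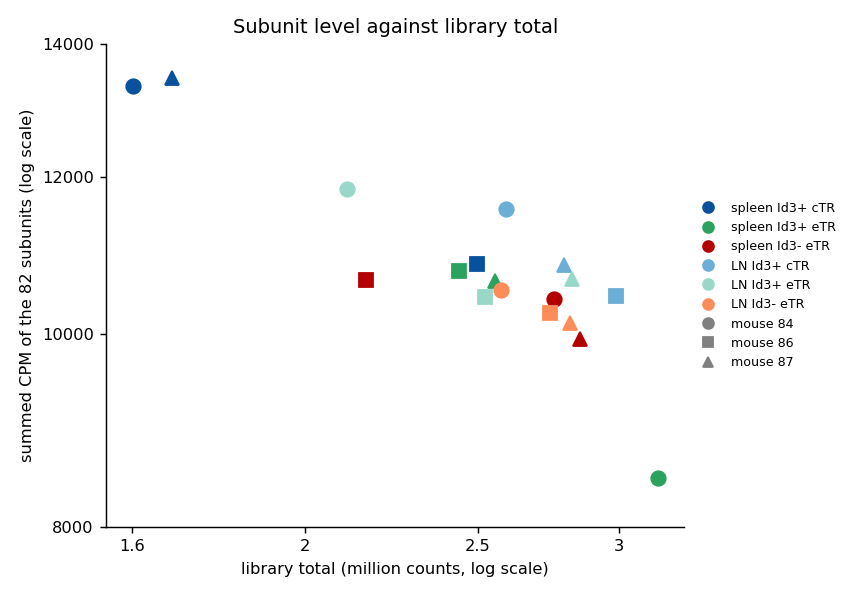
Summed CPM of the 82 subunit genes (y axis, log scale) against the library total (x axis, log scale), with 1 point per library, groups by colour and mice by symbol. The 2 shallowest libraries, spleen Id3+ cTR of mice 84 and 87, lie at 13328 and 13456 CPM and the deepest, spleen Id3+ eTR of mouse 84, at 8461.

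The same fall with depth was seen gene by gene. The slope of log2 CPM on log2 total within groups was below 0 for 70 of the 75 tested subunit genes, with a median of -0.54, where all 12445 tested genes had a median of 0.03 and 48.4% below 0. The most negative slopes among the named genes were those of Ndufa4 (-0.93), Cox7a2 (-0.91), Sdhb (-0.76), Atp5b (-0.76) and Cox6b1 (-0.76). Ndufv1 (0.03) and Ndufs1 (-0.01), both of the catalytic core of complex I, had slopes near 0, as did Cox7c (-0.00). These 3 genes differ in length: the transcripts of Ndufv1 and Ndufs1 have 1528.5 and 2625.5 bases, and that of Cox7c has 540 bases.

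The tested subunit genes were short and densely covered: 48 of 75 had under 1000 bases of spliced transcript, and 52 of the 75 lay among the 1203 genes with the most counts per kilobase. Among those 1203, the 52 had a median slope of -0.60 and the other 1151 genes one of -0.31. Among those under 1000 bases it was -0.65 for 35 subunit genes and -0.48 for 374 others, and among the longer ones -0.41 for 17 and -0.25 for 777. The highest count of any 1 gene in a library lay between 3306 and 4706, a narrower range than that of the totals. Other gene groups also sloped below 0, with medians of -0.48 for 79 cytosolic ribosome genes (median length 757 bases) and -0.32 for 37 proteasome genes (1410 bases). The 46 assembly factors of the chain (1618 bases) had a median of -0.16. Since totals and groups are linked in spleen (Id3+ cTR from 1600782 to 2498377, Id3+ eTR from 2439228 to 3153325), depth and population cannot be told apart in those groups.

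**Figure D3:**
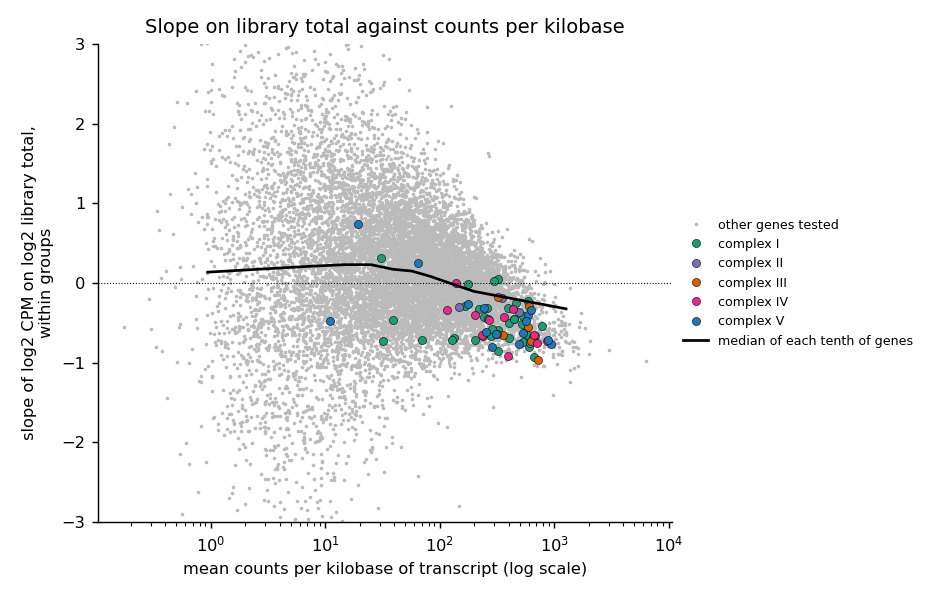
Slope of log2 CPM on log2 library total within groups (y axis, shown from -3 to 3, with 113 of 12028 genes outside and no subunit gene among them) against mean counts per kilobase (x axis, log scale). Grey points are other genes, coloured points are subunit genes by complex, and the line joins the medians of 10 equal bins of genes; most subunit genes lie below 0 at the dense end.

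In spleen, the log2 difference of the subunit genes between Id3+ eTR and Id3+ cTR had a median of -0.36, with 70 of 75 below 0, where all tested genes had a median of 0.05. The edgeR fit called 0 higher and 4 lower (5.33%), against 4.32% of all genes called, 2.93% higher and 1.39% lower. At an unadjusted p under 0.05 there were 46 (61.3%, against 2484 or 20% of all genes), and DESeq2 called 0 higher and 18 lower, against 8.24% of all genes. Without overlap between the groups, 24 genes were lower in Id3+ eTR (32%, against 9.07% of all genes) and 0 higher (against 10.8%). The medians by complex were -0.36 for I, -0.17 for II, -0.44 for III, -0.43 for IV and -0.36 for V. The 4 tested subunit and carrier genes outside the symbol rule (Cyc1, Cycs, Usmg5 and Atpif1) had a median of -0.007. In spleen Id3- eTR against Id3+ cTR their median was 0.04.

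The 4 genes called lower were Ndufb8 and Ndufa8, accessory subunits of complex I, Uqcrfs1, and Cox7b, a small subunit of complex IV. Ndufb8 read 201, 163 and 194 CPM in Id3+ cTR of mice 84, 86 and 87 and 108, 143 and 131 in Id3+ eTR, at -0.54 ± 0.12 (SE, edgeR adjusted p = 0.0181). Uqcrfs1 read 230.2, 176 and 231 against 124, 159 and 161, at -0.52 ± 0.13 (adjusted p = 0.0286). Every library of Id3+ cTR lay above every library of Id3+ eTR in both, and mouse 86 held the lowest of the first and, for Ndufb8, the highest of the second. Ndufa8 read 165, 153 and 156 against 85.8, 127 and 127, at -0.48 ± 0.13 (adjusted p = 0.0437, and 0.0647 with mouse as a block). Cox7b read 122, 99.9 and 130.1 against 56.6, 88.3 and 88.6, at -0.59 ± 0.16 (adjusted p = 0.0467, and 0.0691 with mouse as a block). In all 4 genes the low end was spleen Id3+ eTR of mouse 84.

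These spleen differences rest on the libraries that stand apart. Without the 3 of them, 0 subunit genes were called in edgeR and the median was -0.01, with the 4 genes between -0.27 and -0.14 (adjusted p from 0.560 to 0.884). That fit leaves Id3+ cTR of spleen with 1 library, whose spread is taken to be that of the other groups. With log2 library total in the model, 0 were called in edgeR and the median was -0.09. With offsets that remove the trend on counts per kilobase, only Ndufb8 was called (-0.43, adjusted p = 0.0371), and with mouse as a block 2 were (Ndufb8 and Uqcrfs1). Leaving out 1 library at a time gave 0 to 13 calls (13 without Id3+ cTR of mouse 86), and without any 1 of the 3 libraries none of the 4 was called, nor was any other member. The shares of all genes called in these fits are not set beside the counts. A gain or loss of calls is therefore not read as particular to the subunit genes. Erythroid and platelet genes moved with this comparison (190.5 to 324 against 10.1 to 147 CPM), and their part in it was not tested.

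**Figure D4:**
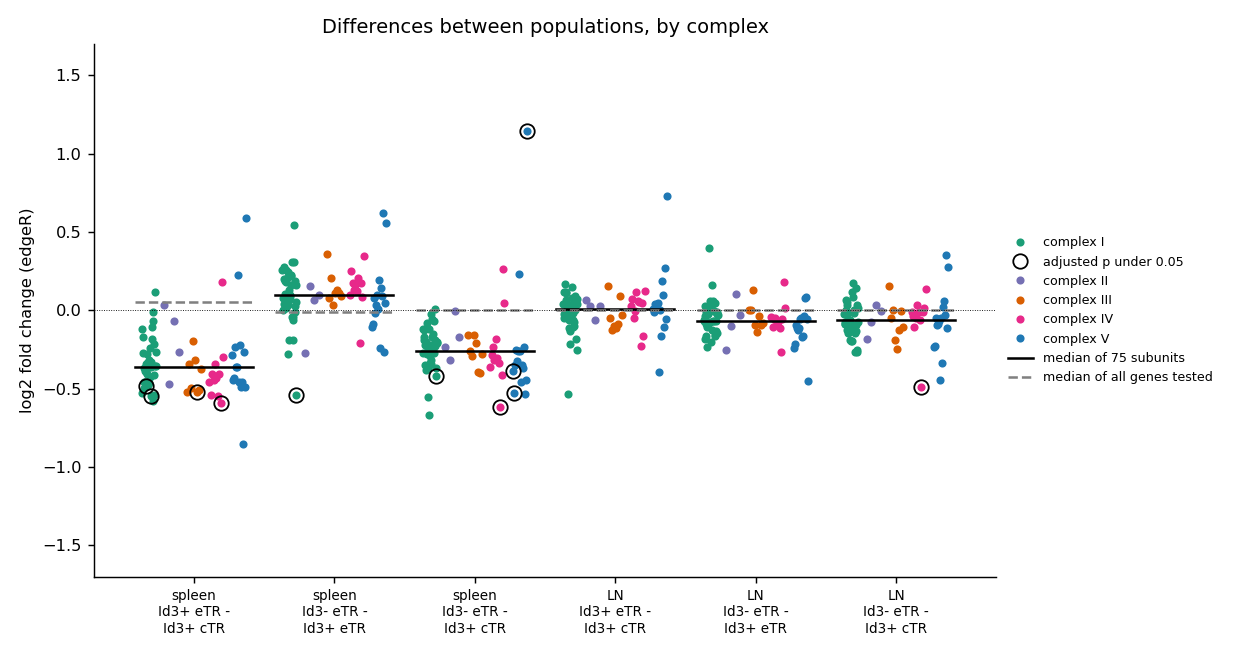
Log2 fold changes of the 75 tested subunit genes (y axis) in the 6 comparisons of populations (x axis), coloured by complex; circles mark adjusted p under 0.05 in edgeR, the solid line is the subunit median and the dashed line that of all tested genes. The subunit medians lie at -0.36 and -0.26 in the 2 spleen comparisons with Id3+ cTR and within 0.10 of 0 in the other 4.

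Between the effector populations of spleen, 1 subunit gene differed: Ndufv1, which encodes the flavin-bearing subunit where NADH enters complex I, was lower in Id3- eTR. It read 207, 226 and 194 CPM in Id3+ eTR of mice 84, 86 and 87 and 149, 135 and 149 in Id3- eTR, a difference of -0.54 ± 0.11 (edgeR adjusted p = 0.00893). The groups did not overlap, and Ndufv1 was lower in 3 of 3 mice. The call was 1 lower of 75 (1.33%), against 3.28% of all genes called, 1.75% lower and 1.53% higher. Without overlap, 9 genes were higher (12%, against 9.79% of all genes) and 1 lower (1.33%, against 8.76%). The median of the subunit genes was 0.10, against -0.01 for all genes. Ndufv1 has a slope on library total of 0.03, and its difference was -0.55 without the 3 libraries (adjusted p = 0.0242), -0.54 with library total in the model (0.0106) and -0.59 with density offsets (0.00675). The call ended only without Id3- eTR of mouse 86 (adjusted p = 0.0505).

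In lymph node Ndufv1 read 194, 206 and 206 CPM in Id3+ cTR, 172, 153 and 183 for Id3+ eTR and 177, 181 and 146 in Id3- eTR. The last 2 groups overlapped (-0.01 ± 0.11, adjusted p = 0.992). The difference of this contrast between the tissues was 0.53 ± 0.15 and was not called over all genes (adjusted p = 0.502). Ndufs1, its partner in the core, was not called in any comparison. Ndufv2, which binds Ndufv1 in the same arm, read 131, 215 and 213 in spleen Id3+ eTR and 201, 213 and 208 in spleen Id3- eTR, so its groups overlapped.

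Against Id3+ cTR of spleen, Id3- eTR had 1 subunit gene higher (1.33%, against 7.17% of all genes) and 4 lower (5.33%, against 5.09%), where 12.3% of all genes were called, with a median of -0.26 and 70 of 75 below 0. The groups did not overlap for 24 lower genes (32%, against 14.1% of all genes) and 1 higher gene (1.33%, against 16.4%). Without Id3+ cTR of mouse 86, 13 genes were called, and with library total in the model 0 were in edgeR. Without the 3 libraries the median was -0.084. The shares of all genes called in these fits are not set beside the counts. Of 6 tested myeloid and dendritic genes, 3 were higher in Id3- eTR in this comparison, against 7.17% of all genes (edgeR adjusted p under 0.05). In lymph node 4 of them were higher, against 8.26%. The part of these and of the CD8 T and NK genes in the subunit differences was not tested. The genes called lower were Atp5a1 and Atp5b, the alternating head subunits of the ATP synthase, Cox7a2l and Ndufv1.

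Cox7a2l, a relative of Cox7a2 known for joining complexes III and IV into supercomplexes, read 131, 105 and 128 CPM in spleen Id3+ cTR, then 75.7, 106 and 92.1 for Id3+ eTR, and 76.6, 79.6 and 80.3 in Id3- eTR. C57BL/6 mice are known to carry a shortened form of its protein. Id3- eTR lay below Id3+ cTR in all libraries, at -0.62 ± 0.14 (edgeR adjusted p = 0.00742). In lymph node Cox7a2l read 109.8, 93.3 and 92.3 in Id3+ cTR, 81.7, 83.9 and 86.9 for Id3+ eTR, and 68.8, 68.7 and 72.7 in Id3- eTR. There the 3 populations did not overlap and stood in that order, and Id3- eTR was lower than Id3+ cTR by a log2 difference of -0.49 ± 0.14 (adjusted p = 0.0291), in 3 of 3 mice. The neighbours in the order were not called (-0.23 ± 0.14, adjusted p = 0.499, and -0.26 ± 0.14, adjusted p = 0.464).

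Cox7a2l was the 1 subunit gene called in both tissues in this contrast, and its difference between the tissues was 0.13 ± 0.20 (edgeR adjusted p = 0.970). In lymph node, where totals ran from 2574681 to 2988373 in these 2 groups, it was called with library total in the model (-0.50, adjusted p = 0.0131), with density offsets (-0.46, 0.0230), without the 3 libraries (-0.49, 0.0127) and in DESeq2 (0.0232). It was not called with no filter on low counts (0.0946), nor without Id3+ cTR of mouse 84 (0.128) or Id3- eTR of mouse 84, 86 or 87 (0.0879, 0.0901 and 0.0655). In spleen the call ended with library total in the model or without the 3 libraries (highest adjusted p = 0.200). Its relatives Cox7a2 and Cox7b were not called in lymph node.

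Atp5b read 1045, 731 and 1047 CPM in spleen Id3+ cTR and 640.3, 725 and 588 in spleen Id3- eTR (-0.53 ± 0.13, edgeR adjusted p = 0.00902). Atp5a1 read 751, 605 and 784 against 531, 559 and 543 (-0.39 ± 0.09, adjusted p = 0.00634). The groups did not overlap, though for Atp5b the nearest libraries, of mouse 86, were 731 and 725. Both calls ended with library total in the model (-0.18 and -0.20, adjusted p = 0.0601 and 0.0825) and without the 3 libraries (-0.17 and -0.15, adjusted p = 0.568 and 0.415). Leaving out Id3+ cTR of mouse 84 or 87 or Id3- eTR of mouse 87 also ended the call of Atp5b (0.0542, 0.0542 and 0.0574).

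In lymph node Atp5b read 787, 706 and 753 CPM in Id3+ cTR, 836, 717 and 680.3 for Id3+ eTR, and 659, 656 and 607 in Id3- eTR. Atp5a1 read 648, 609.8 and 639 in Id3+ cTR, 687, 610.2 and 609.7 for Id3+ eTR, and 532, 554 and 527 in Id3- eTR. For both genes all 3 libraries of Id3- eTR lay below all 6 of the Id3+ populations. The difference of this contrast between the tissues was 0.31 ± 0.18 for Atp5b and 0.15 ± 0.12 for Atp5a1, and neither was called (edgeR adjusted p = 0.813 and 0.905). Against Id3+ cTR neither passed in the edgeR fit of all 18 libraries without a term for depth (-0.22 ± 0.12, adjusted p = 0.287, and -0.23 ± 0.09, adjusted p = 0.0894). With library total in the model both were called (-0.26 ± 0.04, adjusted p = 0.000817, and -0.25 ± 0.05, adjusted p = 0.00358), as they were with density offsets (-0.25 and -0.24, adjusted p = 0.0107 and 0.00793). Without the 3 libraries, none of them from lymph node, Atp5a1 was called (-0.24, adjusted p = 0.0179).

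Atp5s, whose product is known as coupling factor B and whose current RefSeq symbol is Dmac2l, was the 1 gene higher. It read 27.3, 29.2 and 17.3 CPM in spleen Id3+ cTR, 41.9, 22.0 and 47.4 for Id3+ eTR, and 53.6, 57.9 and 52.8 in Id3- eTR (1.15 ± 0.31, edgeR adjusted p = 0.0193). Id3- eTR lay above both other spleen groups. In lymph node it read 24.98, 36.4 and 29.5, then 67.8, 42.9 and 40.9, then 35.8, 30.3 and 44.2, where Id3- eTR overlapped with both others and the difference from Id3+ cTR was 0.28 ± 0.30 (adjusted p = 0.648). The tissue difference of this contrast was -0.87 ± 0.43 (adjusted p = 0.747). The spleen call ended with library total in the model (1.08, adjusted p = 0.105), without the 3 libraries (0.91, 0.324), without Id3- eTR of mouse 86 (0.0525) and without Id3+ cTR of mouse 87 (0.101). Ndufv1 was at -0.42 ± 0.11 in the same contrast (adjusted p = 0.0176). Its call ended with density offsets, with no filter, with library total in the model, without the 3 libraries, and without Id3+ cTR of mouse 84 or Id3- eTR of mouse 86 (adjusted p up to 0.158).

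**Figure D5:**
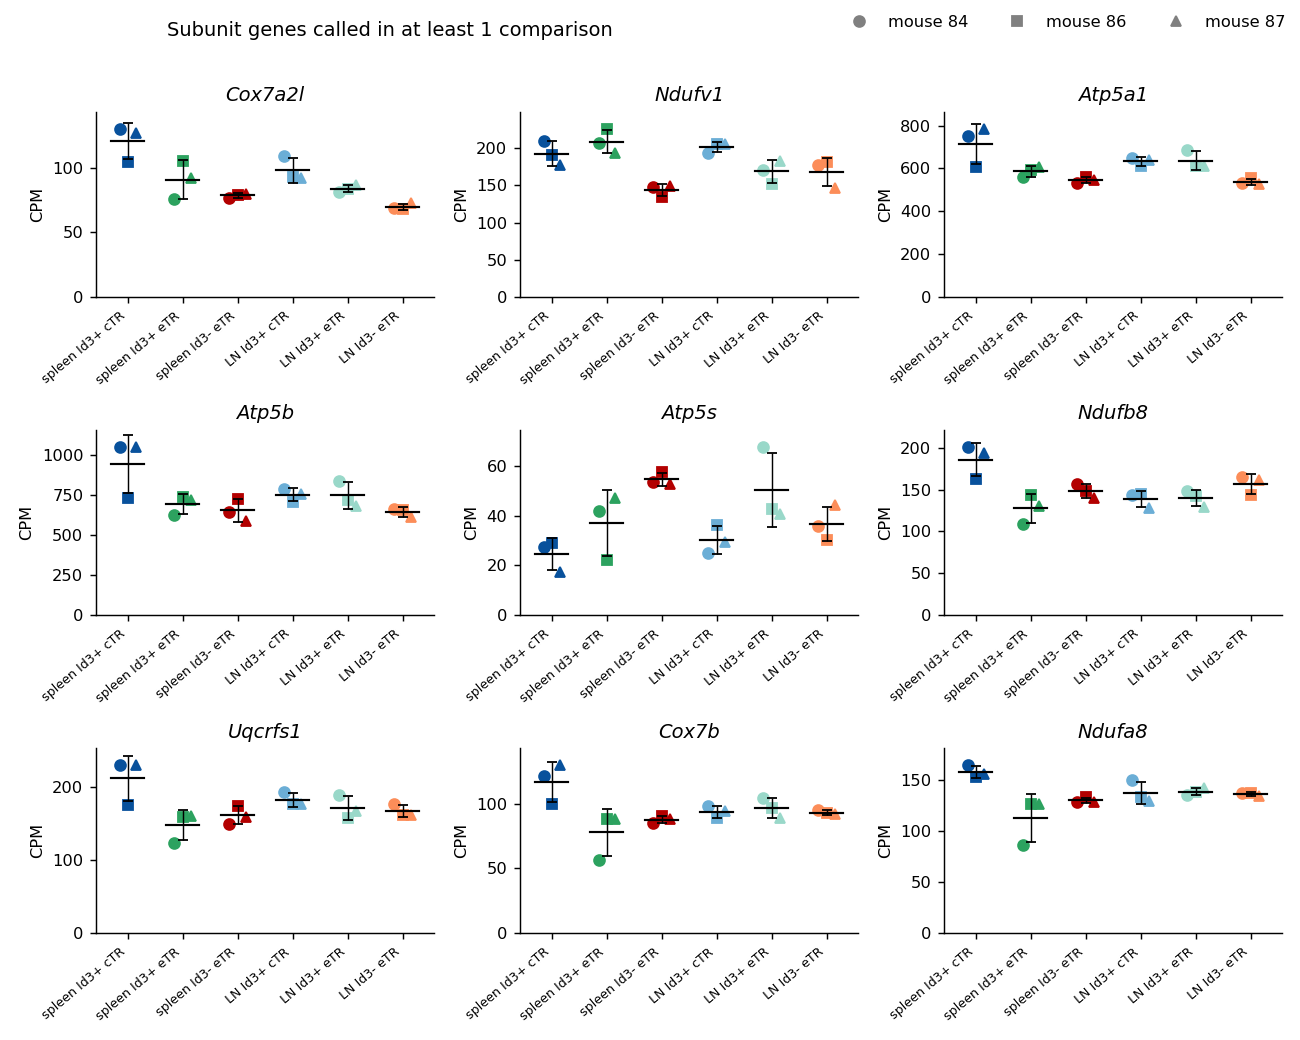
CPM (y axis, from 0) of the 9 subunit genes called in at least 1 comparison, in the 18 libraries by group (x axis); points are libraries, with the mouse as symbol, lines are means and bars the SD. Cox7a2l steps down without overlap over the 3 lymph node groups, Ndufv1 is low in spleen Id3- eTR, and Atp5s is high there.

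In lymph node, Id3+ eTR against Id3+ cTR gave 0 calls of 75 in edgeR and in DESeq2, with 2 at an unadjusted p under 0.05 (2.67%, against 16.5% of all genes), where 5.66% of all genes were called, 4.2% higher and 1.46% lower. The median was 0.01, with 32 genes below 0 and 43 above. Complex medians lay between -0.07 (III) and 0.05 (IV). Groups lay apart for 2 higher genes (2.67%, against 13.5% of all genes) and 5 lower genes (6.67%, against 11.3%). Id3- eTR against Id3+ eTR also gave 0 in both tools, with 1 at an unadjusted p under 0.05 (1.33%, against 13.1%), where 2.62% of all genes were called, 1.45% higher and 1.17% lower. The median was -0.07, and 9 genes were lower without overlap (12%, against 10.7%) and 0 higher (against 11.3%). Here Atp5a1 was at -0.24 ± 0.09 (edgeR adjusted p = 0.197), and it was called with density offsets (-0.22, 0.0407) and without the 3 libraries (-0.24, 0.0456).

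For Id3- eTR against Id3+ cTR in lymph node, Cox7a2l was the single call, 1 lower of 75 (1.33%, against 4.68% of all genes) and 0 higher (against 8.26%, and 12.9% in all). The median was -0.06, with 54 genes below 0. The groups did not overlap for 14 lower genes (18.7%, against 16.1% of all genes) and 2 higher (2.67%, against 17.8%). In this contrast the log2 differences ran from -0.49 (Cox7a2l) to 0.35.

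Between the tissues the fit called 0 subunit genes in each population, as did DESeq2. Of all genes, 0.00804% were called in Id3+ cTR (0.00804% higher in lymph node and 0% lower), 0.289% in Id3+ eTR (0.112% and 0.177%) and 0.305% in Id3- eTR (0.145% and 0.161%). At an unadjusted p under 0.05 there were 7, 8 and 0 subunit genes in that order (9.33%, 10.7% and 0%), against 7.77%, 11.9% and 7.91% of all genes. The medians were -0.20 in Id3+ cTR, 0.18 for Id3+ eTR and -0.00 in Id3- eTR. Without the 3 libraries the first 2 medians were 0.03 and 0.05. The groups did not overlap for 12 lower genes in Id3+ cTR (16%, against 7.38% of all genes), with 2 higher (2.67%, against 7.18%). In Id3+ eTR they did not overlap for 12 higher genes (16%, against 7.14%) and 1 lower (1.33%, against 6.63%). In Id3- eTR 7 higher (9.33%, against 7.8%) and 5 lower (6.67%, against 7.1%) did not overlap.

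Tested directly, the change of each population contrast from spleen to lymph node was called for 0 subunit genes in edgeR and in DESeq2. The largest number at an unadjusted p under 0.05 was 28 of 75, for Id3+ eTR against Id3+ cTR (37.3%, against 9.48% of all genes), with a median tissue difference of 0.37 (0% of all genes called). For Id3- eTR against Id3+ eTR it was 2 (2.67%, against 6.03%), with a median of -0.17 (0% of all genes called). For Id3- eTR against Id3+ cTR it was 3 (4%, against 6.88%), with a median of 0.20 (0.0241% called). Ndufb8 was at 0.56 ± 0.17 in the first of these (adjusted p = 0.390). All 3 libraries that stand apart lie in the spleen groups of that first contrast. Without them, the subunit medians of Id3+ eTR against Id3+ cTR were -0.013 in spleen and 0.0093 in lymph node.

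The subunits encoded by mitochondrial DNA were counted in part. Of 13 such genes 7 passed the filter, and mt-Atp6 and mt-Atp8 were at 0 in every group, so complex V has no such partner here. Their summed level was 2985 to 4708 CPM in spleen Id3+ cTR, 2259 to 3130 in spleen Id3+ eTR and 2599 to 3291 in spleen Id3- eTR. In lymph node it was 2738 to 3045, 2799 to 3872 and 2758 to 2983. None of the 7 was called in the 6 population comparisons in edgeR, their medians ran from -0.51 to 0.18, and their median slope on library total was -1.04. Summed over the 3 libraries of a group, mt-Co1 had 3682 to 3871 counts and mt-Cytb 4912 to 5362. With counts that changed so little between groups, these CPM ranges cannot be told apart from the library totals.

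Of 47 assembly factors, which build the complexes, 46 were tested. In Id3- eTR against Id3+ cTR, 2 were higher and 0 lower in spleen, and 0 were higher and 2 lower in lymph node. Of all genes, 7.17% were called higher and 5.09% lower in spleen, and 8.26% and 4.68% in lymph node. Coa4 (0.79 ± 0.23, edgeR adjusted p = 0.0328) and Surf1 (0.47 ± 0.14, adjusted p = 0.0431), both of complex IV assembly, were higher in spleen. Uqcc1, of complex III assembly (-0.69 ± 0.20, adjusted p = 0.0291), and Cox10, a heme A synthesis enzyme of complex IV (-1.06 ± 0.33, adjusted p = 0.0455), were lower in lymph node. The medians were 0.03 and -0.10. In the other 4 population comparisons 0 were called. From Id3+ cTR to Id3- eTR of lymph node, mean CPM of Surf1 went from 113 to 135 and of Coa4 from 38.7 to 43.8. In spleen Cox10 went from 59.1 to 47.8 and Uqcc1 from 86.7 to 80.9, so means lay the same way in both tissues. The tissue difference of this contrast was called for 0 of the 46 (0.0241% of all genes). Both spleen calls ended with library total in the model and without the 3 libraries, and that of Cox10 without the 3 libraries (adjusted p = 0.0735).

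Among 11 tested regulators of mitochondrial genes, Gabpb1, the beta subunit of GABP (also called nuclear respiratory factor 2), was higher in both spleen effector populations. It stood at 68.1 ± 11.2 CPM (SD, n = 3) in Id3+ cTR, 122 ± 13.2 for Id3+ eTR and 134 ± 7.42 in Id3- eTR. Its log2 differences from Id3+ cTR were 0.84 ± 0.18 (edgeR adjusted p = 0.0107) and 0.98 ± 0.18 (adjusted p = 0.00103). Without the 3 libraries they were 1.18 ± 0.26, no longer called (adjusted p = 0.0780), and 1.25 ± 0.25 (adjusted p = 0.00961). No other gene of the list was called in the population comparisons. Of all genes, 2.93% were called higher in spleen Id3+ eTR against Id3+ cTR and 7.17% in spleen Id3- eTR against Id3+ cTR.

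Of the 14 citric acid cycle genes, Idh2, the mitochondrial NADP-dependent isocitrate dehydrogenase, was lower in Id3- eTR than in Id3+ cTR in both tissues (-1.01 ± 0.21, edgeR adjusted p = 0.00356, and -0.66 ± 0.20, adjusted p = 0.0418). Idh3a, of the NAD-dependent enzyme, was higher in spleen (0.52 ± 0.13, adjusted p = 0.0134), and Suclg2 was lower in lymph node (-0.89 ± 0.21, adjusted p = 0.00867). In this contrast 7.17% of all genes were called higher and 5.09% lower in spleen, and 8.26% and 4.68% in lymph node. Of 15 fatty acid oxidation genes, Acaa2, the last step of the mitochondrial cycle, was lower in both tissues, from 214 ± 25.2 to 137 ± 17.7 CPM in spleen (SD, n = 3), and from 216 ± 2.44 to 152 ± 4.58 (lymph node) (edgeR adjusted p = 0.00111 and 0.00670). Acadm was lower in spleen (-0.78 ± 0.25, adjusted p = 0.0490). Its call ended with library total in the model and without the 3 libraries (adjusted p = 0.158 and 0.127), and that of Idh2 in lymph node with density offsets (0.0611).

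Of 75 tested mitochondrial ribosome genes, Mrps30 was lower in spleen Id3- eTR than in Id3+ cTR (-0.61 ± 0.17, edgeR adjusted p = 0.0270), and in lymph node Mrps27 was lower (-1.22 ± 0.30, adjusted p = 0.0122) and Mrps6 higher (0.70 ± 0.18, adjusted p = 0.0140). Mrps6 was also higher in lymph node Id3+ eTR than in Id3+ cTR (0.88 ± 0.18, adjusted p = 0.00568), where 4.2% of all genes were called higher. For Id3- eTR against Id3+ cTR, here and in the lists that follow, the shares of all genes were 7.17% higher and 5.09% lower in spleen. In lymph node they were 8.26% and 4.68%. Of 23 import genes, Timm9 and Tomm40 were lower in lymph node Id3- eTR (-1.01 ± 0.30 and -0.56 ± 0.18, adjusted p = 0.0318 and 0.0449). The call of Mrps30 ended with library total in the model and without the 3 libraries (adjusted p = 0.0710 and 0.233), that of Timm9 without the 3 libraries (0.0517) and that of Tomm40 with density offsets (0.0628). Of 79 cytosolic ribosome genes, 20 were lower in spleen and 8 in lymph node in Id3- eTR against Id3+ cTR, none higher, with medians of -0.59 and -0.44. Without the 3 libraries the spleen median was -0.35, and 12 of 80 were called in lymph node (median -0.44). With library total in the model 5 and 17 of 79 were called (-0.31 and -0.46). The shares of all genes called in these fits are not set beside the counts. The subunit medians in the same comparisons were -0.26 and -0.06. Of 37 proteasome genes 2 and 0 were lower, with medians of -0.19 and -0.09. Of 38, 0 and 2 were lower without the 3 libraries. Cycling-cell genes were higher for 5 and 9 of 15 (2 and 9 without the 3 libraries), where 1 and 0 of 75 subunit genes were called higher.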

How the data were processed

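RNA of 18 sorted TR libraries was sequenced, 3 mice in each of 6 groups of population and tissue. The authors deposited a table of counts per gene identifier, made with Bowtie, TopHat and HTSeq 0.4.1, with FastQC, Picard and SAMtools also named, per the submitters' processing notes. For the genome build, the sources used here give none. The authors also deposited a normalized table (signal), whose values for the subunit genes equal the counts times 1 factor per library within 0.1%. It served to choose the members, and all tests used the counts. The 5072 identifiers without a symbol held 0.891% of counts.

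Counts were fitted with edgeR 4.0.16 (limma 3.58.1, R 4.3.3) in 1 model of 6 groups, with filterByExpr (minimum count 10), TMM and the robust quasi-likelihood F test with 12 residual degrees of freedom. The Benjamini-Hochberg adjustment ran over all 12445 tested genes, and calls are those with adjusted p under 0.05. The SE is the log2 difference over the square root of F. Groups are said not to overlap where every CPM of one lies beyond every CPM of the other. Slopes used log2 CPM with a prior count of 2. Transcript length is the median of basic protein-coding transcripts in GENCODE M21. Tables and figures used Python 3.11.15, pandas 2.3.3 and matplotlib 3.10.9. Intervals and limits from counts cover counting error only.

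Alternatives were RLE size factors, no filter, DESeq2 1.42.0, mouse as a block, log2 library total as a covariate, offsets for counts per kilobase, leaving out the 3 libraries that stand apart, and leaving out each library in turn. For the other gene lists, the covariate, the density offsets and the fit without the 3 libraries were added after seeing the data. Populations and tissues of 1 number come from the same mouse, so the samples are paired by animal. Deviations from the group means of same-mouse libraries correlated at -0.0309 to 0.0798 (median 0.0188, 45 pairs), and 0 pairs were over 0.1. Tested on simulated data for spleen Id3+ eTR against Id3+ cTR (12445 genes, 200 changed), edgeR recovered 31.3% of 2-fold and 69% of 4-fold changes, with 5 false among 105 calls. DESeq2 recovered 43.4% and 77%, with 17 false among 137 calls. These simulated counts held no fall of dense genes with library total, so the rates do not cover that feature of the data. The median SE of a log2 difference was 0.17 for the subunit genes and 0.34 for all.

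The members and lists were chosen with earlier results of these data known. Genes named were the 3 most abundant of each complex, all members called in a population comparison, the 4 Sdh genes, sets of isoforms, and up to 4 called genes of each pathway list by smallest adjusted p. Ndufs1 and Cox7c were named after their values were seen, as were Cyc1, Cycs, Usmg5 and Atpif1, which the symbol rule does not take. The single values of 1 other member are not reported here.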

Additional observations from a re-analysis of the deposited data

Results flagged for a closer look

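The symbol rule also takes 7 genes of the count table that the normalized table does not list, and they entered no comparison above. Of these, 4 held counts above the 3 counts that a count of 0 allows. Atp5mpl, a protein-coding gene for a small ATP synthase subunit, had 3778 counts over the 18 libraries, with 149 to 254 in each. The others are processed pseudogenes in GENCODE M21. Ndufs6b had 1462 counts (60 to 101 per library), Ndufa11b had 589 (23 to 42) and Cox6c2 had 561 (22 to 37). Cox7b2 and Cox8c had 0 counts and Ndufb4c had 2.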

How the results depend on the processing

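Each of the 11 subunit calls was refitted in 13 alternatives, and over all of these fits the call was kept in 90 and lost in 53, with 0 reversed. The other gene lists and their called genes were refitted in 3 of these settings only, chosen for them after seeing the data. Most counts of calls in the alternative fits, here and above, stand without the share of all genes called in the same fit. A gain or loss of calls is therefore not read as particular to the subunit genes. For spleen Id3+ eTR against Id3+ cTR (4 calls), DESeq2 called 18, mouse as a replicate block 2, density offsets 1, and 0 were called with library total as covariate or without the 3 libraries that stand apart. For spleen Id3- eTR against Id3+ cTR (5 calls) the last 2 settings also gave 0. For lymph node Id3- eTR against Id3+ eTR (0 calls), density offsets and leaving out the 3 libraries gave 1 each. For lymph node Id3- eTR against Id3+ cTR (1 call), no filter gave 0, the covariate 3, density offsets 3 and leaving out the 3 libraries 2. The replicate block changed no other call than those of Ndufa8 and Cox7b. With the covariate, the medians were -0.024 (spleen Id3- eTR against Id3+ cTR), -0.077 (lymph node Id3+ eTR against Id3+ cTR), 0.013 (lymph node Id3- eTR against Id3+ eTR) and 0.11 (lymph node against spleen in Id3+ cTR), the last 0.029 without the 3 libraries and -0.087 with density offsets, from -0.20. The median of spleen Id3+ eTR against Id3+ cTR went from -0.36 to -0.18 with density offsets, -0.092 with the covariate and -0.013 without the 3 libraries, and that of spleen Id3- eTR against Id3+ eTR from 0.095 to -0.025 without them. Spleen Id3- eTR against Id3+ cTR went from -0.26 to -0.12 with density offsets and -0.084 without the 3 libraries. Leaving out 1 library at a time gave 0 to 13 calls for spleen Id3+ eTR against Id3+ cTR, 0 to 1 for spleen Id3- eTR against Id3+ eTR, 3 to 13 for spleen Id3- eTR against Id3+ cTR, 0 to 1 for lymph node Id3- eTR against Id3+ cTR, and 0 in the others. The median of lymph node Id3+ eTR against Id3+ cTR then ran from -0.051 to 0.076. The cause of these shifts was not tested, apart from the fewer libraries that leaving some out brings. With 3 mice per group, 12 residual degrees of freedom and totals from 1600782 counts, the median SE of a log2 difference was 0.17 for the subunit genes.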
